A study of Mus musculus with 20 samples.

Results

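The H3K4me3 and H3K4me1 peaks of double-positive thymocytes were compared with each other and with every other peak list of the series. They were chosen by target alone, as all 28013 peaks of the H3K4me3 list and all 74607 peaks of the H3K4me1 list, together 102620 of the 270514 peaks in the 16 lists. The cells were CD4+/CD8+ double-positive T cells from C57BL/6 thymus, cells midway through maturation that carry both coreceptors, and the labels name no treatment or mutation. Both marks were mapped by chromatin immunoprecipitation and sequencing, each with 1 antibody from the same vendor, and 1 list was deposited per mark. The labels give neither the age nor the number of the animals. A peak was called shared if it had at least 1 bp in common with a peak of the other mark, and alone otherwise.

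Histone H3 is methylated on lysine 4 by SET1 and MLL family enzymes. The trimethylated form is concentrated at the start sites of active genes, where TFIID and other readers can bind it. The monomethylated form marks enhancers, and it also lies on the shoulders of active promoters, outside the trimethylated core. The series also mapped the machinery that assembles at start sites, the coactivator CBP, the T-cell transcription factor ETS1, open chromatin by FAIRE (which recovers DNA free of nucleosomes without an antibody) and H3K36me3, which SETD2 lays down along transcribed genes.

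Each target had 1 peak list, so the spread between animals is unknown and no p-value was computed. Shares carry 95% Wilson intervals and differences of shares 95% Newcombe intervals, which cover counting error only. Neighbouring peaks are not independent, so true errors are wider. The number of chromosomes on which a difference had the same sign is given instead, over the 20 chromosomes with at least 50 H3K4me3 peaks. The sources used here give neither read numbers nor a peak threshold. Lists of other depth or threshold would give other numbers of peaks.

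Most H3K4me3 peaks lay with H3K4me1, and most H3K4me1 peaks lay without H3K4me3. Of the H3K4me3 peaks, 23934 were shared (85.4%, 95% Wilson interval 85.0 to 85.8) and 4079 were alone. Of the H3K4me1 peaks, 26612 were shared (35.7%, 35.3 to 36.0) and 47995 were alone. By length, 73.8% of the bases under H3K4me3 were also under H3K4me1, and 24.5% of the bases under H3K4me1 were also under H3K4me3. This left 6.02 Mb under H3K4me3 only, 17.0 Mb under both marks and 52.5 Mb under H3K4me1 only. The shared share of H3K4me3 depended on the length of the H3K4me1 list. With only the 28013 H3K4me1 peaks of highest area kept, 54.7% of H3K4me3 and 54.2% of the remaining H3K4me1 peaks were shared.

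Shared peaks were wider than peaks with 1 mark alone. The rule of 1 bp favours this, since a wide peak meets the other mark more easily by length alone. Shared H3K4me3 peaks had a median width of 720 bp (quartiles 480 and 1060 bp), against 310 bp (240 and 440 bp) for H3K4me3 alone, a ratio of 2.32. Shared H3K4me1 peaks had a median of 850 bp (550 and 1390 bp), against 530 bp (340 and 940 bp) for H3K4me1 alone, a ratio of 1.60. Peaks of 1000 bp or more made up 28.5% of shared H3K4me3 peaks and 2.53% of H3K4me3 alone. They made up 41.2% of shared H3K4me1 peaks and 22.9% of H3K4me1 alone. The width ratio of H3K4me3 was 1.49 in the upper 50% of both lists by area. That of H3K4me1 was 1 there and turned to 0.934 with the H3K4me1 list reduced to the number of H3K4me3 peaks.

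**Figure D1:**
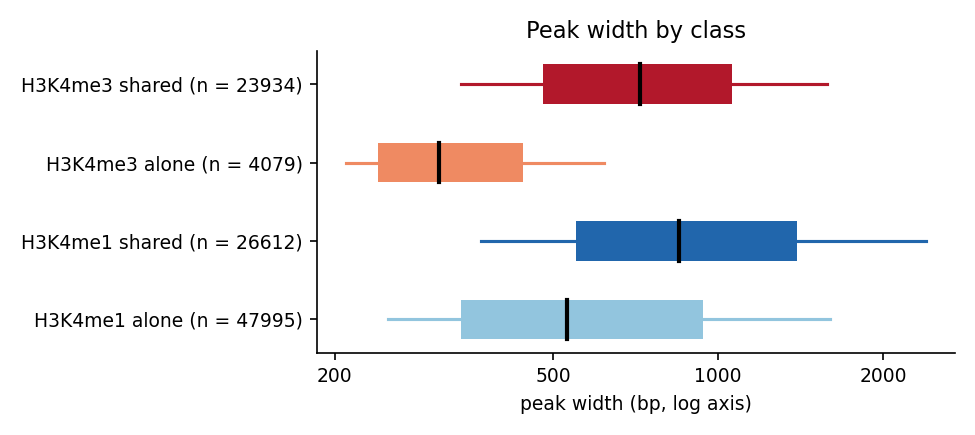
Peak width in bp on a log axis for the 4 classes. The box spans the quartiles, the black line is the median and the thin line runs from the 10th to the 90th percentile; the medians are 720 and 310 bp for shared and lone H3K4me3 peaks and 850 and 530 bp for shared and lone H3K4me1 peaks.

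The share of shared peaks climbed with width in both marks, at different levels. How much of this came from length alone was not tested, here or in the order by area. Of the H3K4me3 peaks under 300 bp, 43.9% were shared, then 77.0% of those of 300 to under 500 bp, 94.1% of 500 to under 1000 bp, 98.3% of 1000 to under 2000 bp and 99.4% of 2000 bp or more. The same bins of H3K4me1 peaks gave 13.1%, 23.3%, 40.7%, 47.2% and 56.3%. Of the 6600 widest H3K4me1 peaks, 2885 were thus without H3K4me3. The area of a peak, the authors' measure of signal under it, followed the same order within each list. The share of shared peaks from the lowest to the highest quintile by area was 65.8%, 79.5%, 89.3%, 94.6% and 98.0% for H3K4me3, and 11.7%, 21.4%, 37.5%, 52.3% and 55.4% for H3K4me1. Area per bp was also higher in shared peaks, by a ratio of medians of 1.50 for H3K4me3 and 1.38 for H3K4me1. Areas were not compared between marks, since the tracks had been scaled separately.

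Overlapping peaks of the marks were more often offset than nested. Of the 28065 overlapping pairs, 18663 (66.5%, 65.9 to 67.0) were staggered, with each peak reaching past the other on 1 side. In 5405 pairs (19.3%) the H3K4me3 peak lay inside the H3K4me1 peak, and in 3987 (14.2%) the reverse held. The overlap had a median of 510 bp (quartiles 350 and 720 bp). Most shared H3K4me3 peaks touched 1 H3K4me1 peak (85.1%), 13.1% touched 2 and 1.80% touched 3 or more.

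H3K4me1 lay on both sides of most H3K4me3 peaks within 1 kb, but not within 200 bp. A side counted with 1 bp or more of H3K4me1, also from a peak that overlapped the H3K4me3 peak itself. Within 1 kb outside its ends, 70.1% (69.6 to 70.7) of H3K4me3 peaks had H3K4me1 on both sides, 24.0% on 1 side and 5.88% on neither. The reverse arrangement was rare, with H3K4me3 on both sides of 6.06% (5.89 to 6.24) of H3K4me1 peaks and on 1 side of 35.1%. The H3K4me3 list is shorter, at 28013 against 74607 peaks, which limits this share, and the part of list length was not tested. H3K36me3 peaks, measured the same way, had H3K4me1 on both sides in 3.23% and H3K4me3 on both sides in 0.559%. Cover did not favour a direction along the chromosome, with H3K4me1 to the left of 22948 H3K4me3 peaks and to the right of 23065. For flanks of 200 bp, 33.4% had H3K4me1 on both sides and 51.5% on 1 side. The share with both sides was 50.2% for flanks of 500 bp and 77.7% for flanks of 2 kb. With the H3K4me1 list reduced to the number of H3K4me3 peaks, it was 33.0% for flanks of 1 kb. In the upper 50% of both lists by area it was 49.1%.

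Cover by H3K4me1 was highest inside H3K4me3 peaks and fell off outwards from their ends. It was 83.6% at 350 bp inside the end, over the 12816 peaks wide enough. At 1000 bp inside it was 72.4%, over 1275 peaks. Just outside the end, 51.7% of positions were under H3K4me1, then 38.8% at 1000 bp, 22.9% at 2000 bp and 13.1% at 5000 bp. The profile of H3K4me3 around H3K4me1 peaks ran lower, with 17.6% at the end, 12.4% at 1000 bp, 7.03% at 2000 bp and 4.51% at 5000 bp. Around H3K36me3 peaks cover grew outwards. There H3K4me1 covered 3.81% of positions at the end and 8.45% at 5000 bp.

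**Figure D2:**
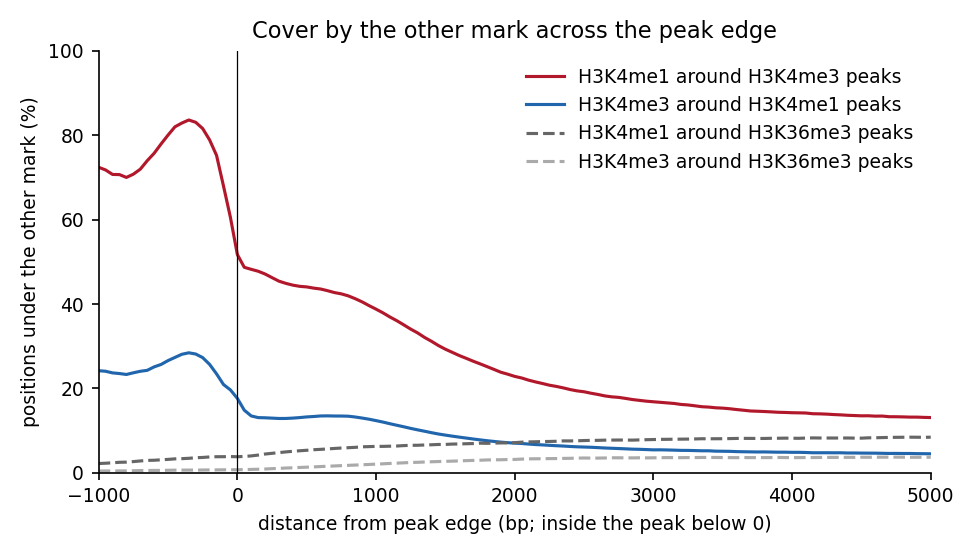
Share of positions under the other mark (percent) by distance in bp from the ends of a peak, outside it at values above 0 and inside it below 0, where a peak enters only if that distance does not pass its middle. H3K4me1 covers 51.7% of positions at the ends of H3K4me3 peaks and 13.1% at 5000 bp, and the dashed lines show H3K4me1 and H3K4me3 around H3K36me3 peaks.

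In wide H3K4me3 peaks a portion had H3K4me1 at both ends and a middle free of it. Among peaks of 2000 bp or more, both end bases lay under H3K4me1 in 601 of 1275 (47.1%), and in 216 of these the middle base did not. Among peaks of 1000 to under 2000 bp the same counts were 1864 of 5651 and 657, and among those of 500 to under 1000 bp they were 2420 of 11492 and 118. Over all widths, 1002 H3K4me3 peaks (3.58%) had both ends covered and the middle free. A further 6637 (23.7%) were covered at both ends and the middle, and 13066 (46.6%), the most frequent pattern, at 1 end and the middle.

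Peaks of H3K4me3 alone were mostly pieces close to shared ones. Their gap to the nearest H3K4me1 peak had a median of 400 bp (quartiles 160 and 1435 bp), and 71.7% lay within 1 kb of one. Of the 4079, 2731 (67.0%, 65.5 to 68.4) lay within 1 kb of a shared H3K4me3 peak, and 2650 of these lay within 1 kb of H3K4me1 as well. H3K4me1 on both sides within 1 kb was found at 76.3% of shared and 33.8% of alone H3K4me3 peaks. Only 561 (13.8%) were more than 20 kb from H3K4me1. Peaks of H3K4me1 alone were farther out, with a median gap to H3K4me3 of 9660 bp (2440 and 29290 bp). Of them 14.5% lay within 1 kb of an H3K4me3 peak and 33.3% beyond 20 kb. With peaks of 1 mark joined over gaps of 1 kb or less, 1097 of 17019 H3K4me3 domains and 22631 of 39202 H3K4me1 domains remained alone.

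The machinery of transcription initiation was found more often at H3K4me3 than at H3K4me1 peaks, whole list against whole list. Total RNA polymerase II (Pol II) overlapped 30.8% of H3K4me3 and 9.56% of H3K4me1 peaks, a difference of 21.3 percentage points (20.7 to 21.9). Ser5P, the form of Pol II phosphorylated at initiation, overlapped 22.1% and 5.15%. TBP, which nucleates the preinitiation complex, overlapped 28.7% and 8.41%. These and 9 of the other lists were higher at H3K4me3 peaks on all 20 chromosomes, and so 12 of the 13 factor and FAIRE lists. Ser2P, phosphorylated on elongating Pol II, was the exception at 0.785% and 0.701%, a difference of 0.0843 points (-0.0309 to 0.209) that was positive on 13 of 20 chromosomes.

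Pol II and the general factors separated the 2 classes of lone peaks as deposited. In domains joined over gaps of 1 kb or less, Taf1, TFIIA, TFIIE, TFIIF and TFIIH went the other way, with TFIIE at 2.19% of H3K4me3-alone and 2.48% of H3K4me1-alone domains. The shares that follow are of deposited peaks. Total Pol II overlapped 22.8% of H3K4me3-alone and 2.01% of H3K4me1-alone peaks (20.8 points, 19.5 to 22.1). Ser5P overlapped 20.3% and 0.717% (19.6 points, 18.4 to 20.9). TBP overlapped 20.9% and 2.31% (18.6 points, 17.4 to 19.9). All 3 were higher at H3K4me3 alone on 20 of 20 chromosomes. TFIIB, which joins TBP to Pol II, overlapped 10.9% and 2.21%. TFIIE, which recruits TFIIH, overlapped 11.2% and 1.80%, and TFIIH, the helicase and kinase that opens the promoter, 2.92% and 0.927%. The remaining general factors overlapped fewer of these lone peaks. The Taf1 list held 13518 peaks and that of TFIIB 10999, and the part of list length was not tested. Under neither mark lay 11911 of the 13518 Taf1 midpoints, 5066 of 6588 for TFIIA, 690 of 1262 for TFIIF and 6146 of 8618 for TFIIH. The same counts were 2114 of 10999 for TFIIB, 3635 of 11678 for TFIIE and 4613 of 15651 for TBP. Taf1, the largest TFIID subunit, overlapped 2.53% and 0.696%, TFIIA, which stabilises TBP on DNA, 2.77% and 0.588%, and TFIIF, which arrives with Pol II, 0.834% and 0.204%. FAIRE overlapped 10.1% and 3.59%.

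Over all widths, ETS1, Ser2P and H3K36me3 did not follow that order, and the share with CBP did not separate the classes. ETS1, a factor that binds T-cell promoters and enhancers, overlapped 0.490% of H3K4me3-alone and 1.34% of H3K4me1-alone peaks, a difference of -0.847 points (-1.05 to -0.564). CBP, an acetyltransferase of histones at enhancers and promoters, overlapped 2.01% and 1.71% (0.302 points, -0.104 to 0.793), although per Mb covered it had 49.1 midpoints in H3K4me3 alone and 20.6 in H3K4me1 alone. With only the 28013 H3K4me1 peaks of highest area kept, CBP was lower at H3K4me3 alone (-2.68 points, -3.15 to -2.21), and with overlap of at least 50% of the shorter peak the ETS1 interval reached 0 (-0.319 points, -0.615 to 0.0490). In bins of under 300, 300 to under 500 and 500 to under 1000 bp, ETS1 and CBP were higher at H3K4me3 alone. ETS1 overlapped 0.216% and 0.0695%, 0.414% and 0.164%, and 1.19% and 0.475% there. CBP overlapped 1.35% and 0.208%, 2.14% and 0.410%, and 3.26% and 0.856%. At 1000 to under 2000 bp ETS1 was lower, at 1.05% of 95 and 3.11% of 8097 peaks. Only 8 H3K4me3-alone peaks were 2000 bp or wider. Over all widths Ser2P overlapped 0.221% and 0.644% (-0.423 points, -0.552 to -0.214). H3K36me3 overlapped 0.515% of H3K4me3-alone and 6.86% of H3K4me1-alone peaks, and it was lower at H3K4me3 alone on 20 of 20 chromosomes. Of the 13 factor and FAIRE lists, 11 were thus more frequent at H3K4me3 alone. This count was 4 once peaks were joined into domains, where total Pol II overlapped 5.65% of H3K4me3-alone and 2.18% of H3K4me1-alone domains and TFIIH 0.273% and 1.29%.

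Within H3K4me1, overlap with H3K4me3 went with every list of the initiation machinery. Total Pol II overlapped 23.2% of shared and 2.01% of alone H3K4me1 peaks, an 11.5-fold difference in share. Ser5P overlapped 13.2% and 0.717%, 18.4-fold apart. TBP overlapped 19.4% and 2.31%, TFIIB 15.99% and 2.21%, and TFIIE 15.1% and 1.80%. The other general factors were closer, at 5.503-fold for TFIIF, 5.42-fold for TFIIH, 4.71-fold for TFIIA and 3.796-fold for Taf1. Ser2P stood at 1.25-fold. The lists that mark enhancers as well differed less than most of these, but ETS1 was level with Taf1 and Ser2P was lower still. CBP overlapped 5.26% and 1.71% (3.08-fold), ETS1 5.06% and 1.34% (3.78-fold) and FAIRE 10.9% and 3.59% (3.04-fold). In the upper 50% of both lists by area the intervals of these 3 differences held 0, at 0.0414 points for CBP, 0.145 for ETS1 and 0.592 for FAIRE. Over all widths, all 13 lists were higher in shared H3K4me1 peaks, also per Mb covered. H3K36me3 was lower, at 4.45% of shared and 6.86% of alone H3K4me1 peaks (-2.41 points, -2.74 to -2.07).

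**Figure D3:**
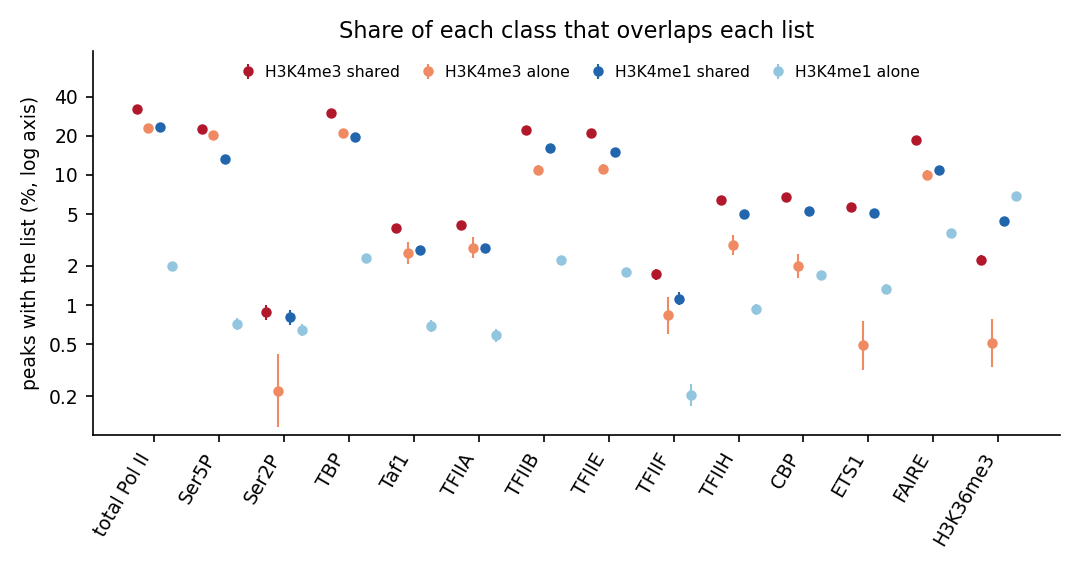
Share of peaks (percent, log axis) in each of the 4 classes that overlap each of the 14 other lists, with 95% Wilson intervals as bars. Total Pol II is at 32.2%, 22.8%, 23.2% and 2.01% of shared H3K4me3, lone H3K4me3, shared H3K4me1 and lone H3K4me1 peaks, and H3K36me3 is highest in lone H3K4me1 peaks at 6.86%.

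Within H3K4me3, the same contrast was smaller for Pol II, Ser5P and the general factors, and larger in points for ETS1, CBP, FAIRE and Ser2P. Total Pol II overlapped 32.2% of shared and 22.8% of alone H3K4me3 peaks (9.37 points, 7.93 to 10.8). TFIIB overlapped 22.0% and 10.9%, TFIIE 20.9% and 11.2%, and FAIRE 18.6% and 10.1%. ETS1 showed the widest relative gap, at 5.64% and 0.490%, followed among the factors by Ser2P at 0.882% and 0.221% and CBP at 6.73% and 2.01%. Ser5P was nearest, at 22.4% and 20.3% (2.07 points, 0.700 to 3.39), and was higher in shared peaks on 13 of 20 chromosomes. All 13 lists were more frequent in shared H3K4me3 peaks, but shared peaks were also wider. Per Mb covered, only 6 of the 13 lists were denser in shared peaks, and total Pol II had 482 midpoints per Mb in shared against 630 in alone H3K4me3 peaks.

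At like width the contrast within H3K4me3 turned for most lists in peaks under 1000 bp. Total Pol II, Ser5P and TBP were lower in shared peaks in each wider bin as well. Among peaks under 300 bp, 4 of the 13 lists were more frequent in shared than in alone H3K4me3 peaks, and total Pol II overlapped 9.18% of 1449 shared and 20.4% of 1852 alone peaks. Ser5P overlapped 4.00% and 20.6% there. At 300 to under 500 bp, 3 lists were more frequent in shared peaks, and total Pol II overlapped 14.3% and 19.7%. At 500 to under 1000 bp, 4 were, and total Pol II overlapped 27.6% and 31.2%. At 1000 to under 2000 bp 7 lists were more frequent in shared peaks and at 2000 bp or more 10 were, though these bins held only 95 and 8 alone peaks. Total Pol II overlapped 51.5% of shared and 52.6% of alone peaks in the first of them, and 81.6% and 87.5% in the second. CBP and ETS1 kept their direction in each of the 3 narrower bins. At 500 to under 1000 bp CBP overlapped 5.12% of shared and 3.26% of alone peaks, and ETS1 3.87% and 1.19%. In H3K4me1, 12 or 13 lists were more frequent in shared peaks in each of the 5 width bins. The exception was Ser2P, lower in shared H3K4me1 peaks in each bin under 2000 bp. It overlapped 0.306% of shared and 0.475% of alone peaks under 300 bp, and 0.621% and 0.790% at 1000 to under 2000 bp.

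Base by base, initiation factors were denser where H3K4me3 lay without H3K4me1. Such bases were 26.2% of the length under H3K4me3, yet they held 52.6% (51.6 to 53.5) of the total Pol II midpoints found under H3K4me3. They held 60.4% (59.3 to 61.5) of those of Ser5P, 58.2% (57.2 to 59.1) of those of TBP and 61.7% (60.2 to 63.1) of those of FAIRE. The densities differed accordingly. Total Pol II had 989 midpoints per Mb on bases with H3K4me3 only, 316 on bases with both marks and 31.7 on bases with H3K4me1 only. TBP had 919, 234 and 29.0 per Mb, and FAIRE 448, 98.7 and 36.6 per Mb. The share of midpoints on bases without H3K4me1 was lower for TFIIB at 49.97%, TFIIF at 49.8% and TFIIH at 43.9%, with the rest under both marks.

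The general factors shared this pattern, CBP less strongly, while ETS1 was near even and Ser2P went the other way. Taking bases with H3K4me3 only over bases with both marks, the density ratio was 3.19 for Taf1, 3.596 for TFIIA, 2.82 for TFIIB, 3.06 for TFIIE, 2.79 for TFIIF and 2.21 for TFIIH. It was 1.81 for CBP, with 39.1% (36.8 to 41.5) of its midpoints under H3K4me3 on bases without H3K4me1. It was 1.12 for ETS1, with 28.4% (26.0 to 30.9), close to the 26.2% of the length. Ser2P was below 1, at 0.670, with 19.2% (14.6 to 24.9) of its 224 midpoints. Midpoints on bases with H3K4me3 only were seldom far from H3K4me1. The median distance to the nearest H3K4me1 peak was 195 bp for total Pol II, 205 bp for Ser5P, 144 bp for FAIRE and 84 bp for ETS1.

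**Figure D4:**
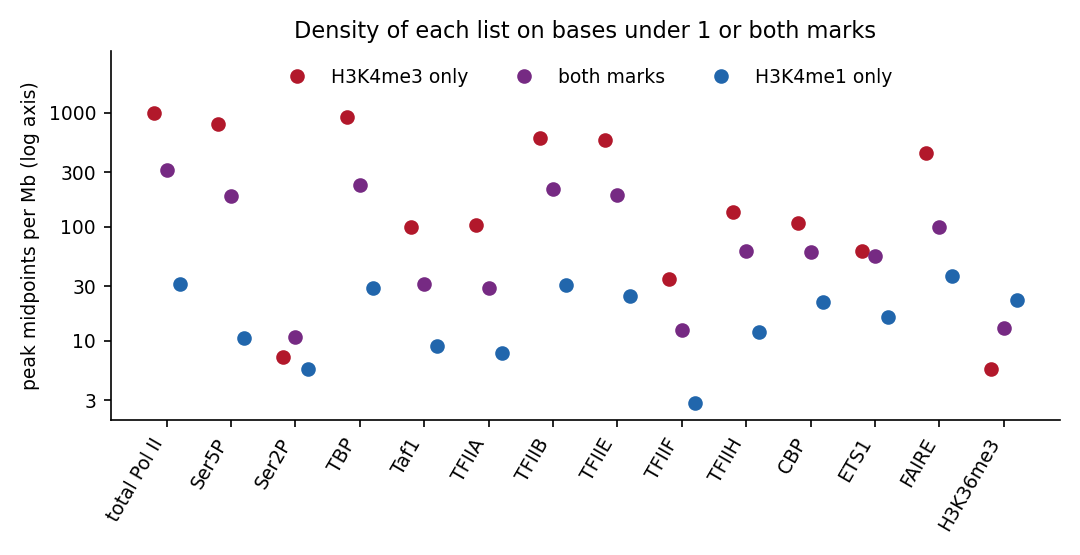
Peak midpoints per Mb (log axis) of each of the 14 lists on bases under H3K4me3 only (6.02 Mb), both marks (17.0 Mb) and H3K4me1 only (52.5 Mb). Total Pol II stands at 989, 316 and 31.7 per Mb, while ETS1 is nearly level between the first 2 and H3K36me3 runs the other way.

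Among H3K4me3 peaks that overlapped H3K4me1, those with both ends covered and the middle free carried the most lists, 4.14 of 13 on average. Those with 1 end covered and the middle free carried 2.81, and H3K4me3 peaks alone 1.08. The 1002 peaks with H3K4me1 at both ends and a free middle, with a median width of 1550 bp, overlapped total Pol II in 69.7%, TBP in 69.4%, TFIIB in 54.3% and FAIRE in 52.5%. The 6637 peaks covered at both ends and the middle, with a median of 580 bp, overlapped them in 29.5%, 29.3%, 26.7% and 21.2%. In peaks of 1000 to under 2000 bp alone, total Pol II overlapped 69.4% of the 657 peaks with a free middle and 57.1% of the 1207 with a covered one, and FAIRE 52.4% and 38.2%. TFIIB differed little there, at 51.4% and 49.7%, and at 2000 bp or more it stood at 79.6% and 81.6%. ETS1 and CBP went the other way in that bin. ETS1 overlapped 7.31% of peaks with a free middle and 24.2% with a covered one, and CBP 10.7% and 18.6%. At 2000 bp or more they did so too, with 22.2% and 33.5% for ETS1 and 22.2% and 41.3% for CBP. At 500 to under 1000 bp CBP stood at 14.4% of 118 peaks with a free middle and 11.8% of 2302 with a covered one. The 1557 peaks with 1 end covered and a free middle had a median width of 920 bp. Against those with both ends covered and a free middle, total Pol II overlapped 38.0% and 30.5% at 500 to under 1000 bp. At 1000 to under 2000 bp the shares were 66.1% and 69.4%, and at 2000 bp or more 89.6% and 94.4%. FAIRE was lower with 1 end covered in each bin, at 27.8% and 32.2%, 42.3% and 52.4%, and 38.7% and 66.7%.

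Intervals between neighbouring H3K4me1 peaks gave a like picture. Of such intervals of 200 to 5000 bp, 9611 (33.2%) held an H3K4me3 peak and 19357 did not. Total Pol II overlapped 49.8% of the intervals with H3K4me3 and 1.45% of those without, TBP 49.5% and 0.811%, TFIIE 30.3% and 0.733%, and FAIRE 29.5% and 1.11%. H3K36me3 overlapped 0.905% of the intervals with H3K4me3 and 10.8% of those without. The intervals with H3K4me3 were narrower, with medians of 680 bp and 1220 bp. Per Mb, H3K36me3 had 5.43 midpoints in the intervals with H3K4me3 and 47.0 in those without. The part of width in the H3K36me3 difference was not tested further.

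In peaks of H3K4me3 alone, factors thinned out with the gap to H3K4me1. Total Pol II overlapped 31.7% of those less than 500 bp away, 22.0% at 500 to under 1000 bp, 17.2% at 1 to 2 kb, 3.39% at 2 to 5 kb, 5.40% at 5 to 20 kb and 2.50% at 20 kb or more. FAIRE overlapped 13.9% in the nearest bin and 3.21% in the farthest, and TFIIE 15.5% and 0.178%. Of the 561 peaks at 20 kb or more, 91.4% (88.8 to 93.5) overlapped none of the 13 lists. Their median width was 370 bp, against 290 bp in the nearest bin. Their median area was lower, at 57446 against 82067. The part of peak width and area in the decline was not tested.

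In peaks of H3K4me1 alone, FAIRE, CBP and ETS1 were lowest at 500 to under 1000 bp from H3K4me3 and higher beyond. Those less than 500 bp from H3K4me3 overlapped total Pol II in 3.55%, FAIRE in 5.09%, CBP in 2.45% and ETS1 in 1.38%. At 500 to under 1000 bp the shares were 1.96%, 1.89%, 0.982% and 0.491%. At 20 kb or more total Pol II was at 1.35% (1.18 to 1.54), while FAIRE was at 3.90%, CBP at 1.96% and ETS1 at 1.66%. The intervals of FAIRE, CBP and ETS1 at these distances did not overlap, with the higher share at 20 kb or more. The initiation lists had no common direction, and the intervals of those given here overlapped. TBP stood at 1.74% of peaks at 500 to under 1000 bp and 2.01% at 20 kb or more. TFIIB was at 1.81% and 2.20%, and Ser5P at 0.566% and 0.570%. TFIIE, at 1.70% and 1.47%, and total Pol II were lower at 20 kb or more. The H3K36me3 share was highest in H3K4me1-alone peaks at 1 to 2 kb from H3K4me3, 11.4%, and lowest at 20 kb or more, 3.65%.

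**Figure D5:**
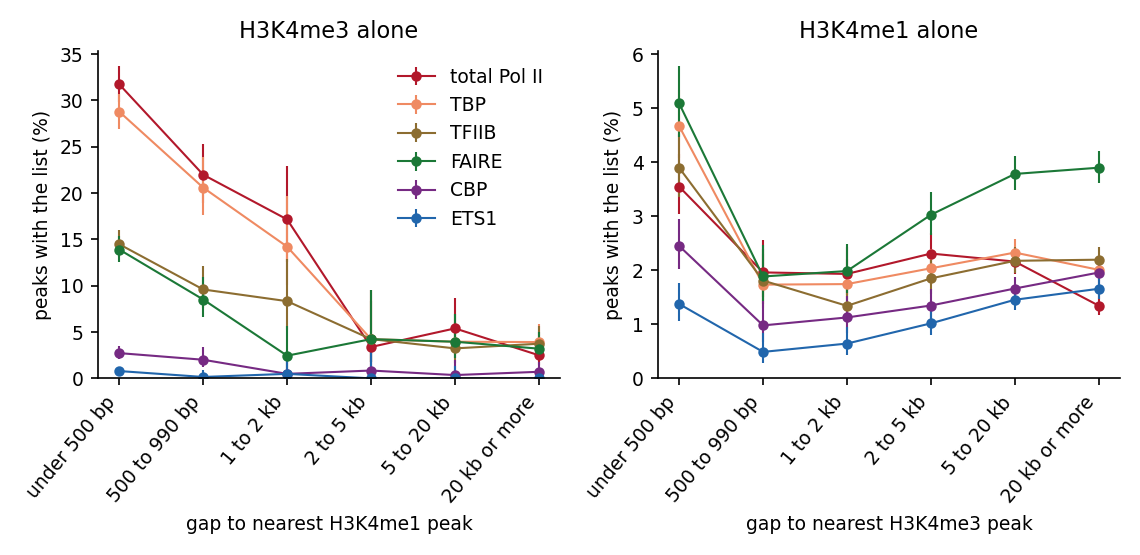
Share of lone H3K4me3 peaks (left) and lone H3K4me1 peaks (right) that overlap each of 6 lists (percent, scales differ), by gap to the nearest peak of the other mark, with 95% Wilson intervals. Total Pol II runs from 31.7% to 2.50% of lone H3K4me3 peaks from the nearest to the farthest bin, and FAIRE is at 5.09%, 1.89% and 3.90% of lone H3K4me1 peaks at under 500 bp, 500 to under 1000 bp and 20 kb or more.

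In open chromatin the lone H3K4me1 peaks still stood below the other classes in Pol II and TBP. Among peaks with a FAIRE peak, total Pol II overlapped 67.2% of 4455 shared and 61.2% of 410 alone H3K4me3 peaks, and 53.6% of 2899 shared and 13.3% of 1722 alone H3K4me1 peaks. TBP overlapped 66.8%, 62.7%, 56.3% and 21.3% of the same classes. Within open H3K4me3 peaks the gap was small or turned for several lists, with overlapping intervals for TBP, Ser5P at 46.7% of shared and 48.3% of alone peaks, and TFIIA at 11.3% and 13.7%. ETS1 was lowest in open H3K4me3-alone peaks, at 2.20%, against 17.7%, 26.7% and 15.8% in the other classes in the same order. CBP overlapped 20.9%, 9.51%, 25.8% and 17.2%.

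Many peaks of every class carried no other list. No factor or FAIRE peak overlapped 49.7% (49.1 to 50.4) of shared and 64.5% (63.0 to 66.0) of alone H3K4me3 peaks. The same held for 59.9% (59.4 to 60.5) of shared and 90.2% (89.95 to 90.5) of alone H3K4me1 peaks. The mean number of the 13 lists per peak was 1.76 and 1.08 in H3K4me3 and 1.20 and 0.187 in H3K4me1, shared before alone. Peaks with 4 or more lists were 21.5% of shared and 12.2% of alone H3K4me3 peaks, and 13.3% and 1.23% of shared and alone H3K4me1 peaks.

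Single regions are given in build mm9 and by position, since no gene annotation of that build was used here. The widest shared H3K4me3 peak spanned 25130 bp on chromosome 14 at 54808561 to 54833690, touched 8 H3K4me1 peaks and overlapped 7 of the 13 lists, among them all 3 forms of Pol II. It was followed by peaks of 13210 bp on chromosome 3 at 94176851 to 94190060 and of 12400 bp on chromosome 2 at 101478431 to 101490830, with 9 and 11 lists. The highest area belonged to a peak of 10240 bp on chromosome 11 at 52086151 to 52096390, with 12 of the 13 lists and ETS1 the missing one. The chromosome 2 peak came next, and then one of 11480 bp on chromosome 17 at 51960331 to 51971810 with 9 lists. All 5 of these regions overlapped H3K36me3.

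Lone H3K4me3 peaks reached far smaller widths. The widest covered 4520 bp of chromosome 6, from 41483821 to 41488340, lay 1740 bp from H3K4me1 and overlapped total Pol II, Ser5P, TBP, TFIIB and TFIIE. It also had the highest area of its class. Next by width came 2990 bp on chromosome 7 at 141420891 to 141423880, 320 bp from H3K4me1. A peak of 2420 bp on chromosome X at 156573541 to 156575960 lay 20 bp from H3K4me1. The next 2 by area lay on chromosome 9 at 32503781 to 32506050 and on chromosome 11 at 69223071 to 69225260, with 6 and 5 lists. The most lists, 11 of 13, were found at a peak of 400 bp on chromosome 11 at 69571781 to 69572180, which lay 330 bp from H3K4me1. Next by that count, with 10 lists each, were peaks on chromosome 11 at 62364651 to 62365790 and on chromosome 13 at 17786901 to 17787430. The lone H3K4me3 peak farthest from H3K4me1 with both total Pol II and FAIRE was 470 bp wide, on chromosome 8 at 19784371 to 19784840, with a gap of 234840 bp. The next 2 lay on chromosome 10 at 81816751 to 81817710 and on chromosome 17 at 22361931 to 22363060. All 3 carried TBP and TFIIB peaks.

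Among H3K4me1 peaks, the widest shared one spanned 28910 bp on chromosome 1 at 140039841 to 140068750, touched 6 H3K4me3 peaks and overlapped CBP, ETS1, FAIRE, TFIIA, TFIIB and total Pol II. Peaks of 20820 bp on chromosome 1 at 43511511 to 43532330 and of 19290 bp on chromosome 9 at 32513911 to 32533200 followed, and these 3 also had the highest areas of their class. The widest H3K4me1-alone peak, of 12020 bp on chromosome 15 at 72982781 to 72994800, overlapped FAIRE and no other of the 13 lists. The next, of 9920 bp on chromosome 16 at 24214381 to 24224300, lay 32650 bp from H3K4me3 with TFIIB, TFIIE and CBP peaks. The third, of 8950 bp on chromosome 1 at 177566021 to 177574970, had TBP, TFIIB, TFIIE and ETS1 peaks. None of these 3 overlapped a Pol II list. By area the third was a peak of 6670 bp on chromosome 11 at 5310811 to 5317480, which overlapped FAIRE only.

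A few lone H3K4me1 peaks did carry nearly the whole set. A peak of 2690 bp on chromosome 3 at 51457431 to 51460120 overlapped 12 of the 13 lists and lay 80 bp from H3K4me3. The next by that count had 10 lists each and lay 42380 bp from H3K4me3 on chromosome 2 at 169501561 to 169507000 and 15570 bp from it on chromosome 3 at 127563881 to 127567950. Both overlapped CBP, total Pol II, Ser5P, TBP, Taf1, TFIIA, TFIIE, TFIIF and TFIIH, and neither overlapped FAIRE or ETS1.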

How the data were processed

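Peak lists from 16 of the 20 samples were used; 4 others (RNA and control libraries) were not used here. In each list the authors gave peaks with an area, a signal value under their track, made per the file headers and names after removal of artefacts, scaling and background subtraction (none of these is recorded for FAIRE). Replicates had been merged, except for CBP, Taf1 and TFIIB, which came from 1 replicate. Per the submitters' processing notes the build was mm9. Aligner, peak caller and threshold: not given in the sources used here. Depth is unknown.

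Overlap meant 1 bp or more. Midpoints per Mb were counted over the bases of a class. Flanks were 1 kb. Wilson, Newcombe and order-statistic intervals were at 95%. Regions named were the 3 widest and the 3 of highest area of each class, the 3 lone peaks of each mark with the most lists, and the 3 lone H3K4me3 peaks farthest from H3K4me1 with FAIRE and total Pol II. The marks, classes and measures were chosen with earlier results of these data known. The patterns of ends and middle and the intervals between H3K4me1 peaks were added after seeing the data. Genome sequence and annotation of mm9 were not used here, so planned work on start sites and CpG content was not run. Overlap, gap and flank code was tested on simulated data. Computation used scipy 1.17.1 with pandas 2.3.3, under Python 3.11.15 with numpy 2.4.6, and plots used matplotlib 3.10.9. Alternatives are given in the closing section.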

Additional observations from a re-analysis of the deposited data

Results flagged for a closer look

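The contrast of shared with alone peaks went opposite ways in the 2 marks for 8 lists, which is why they are given here. With 1 list per mark, the difference between the marks was not tested. H3K36me3 was 1.70 percentage points higher in shared than in alone H3K4me3 peaks while shared minus alone H3K4me1 peaks gave -2.41 points. Its midpoints per Mb gave ratios of shared to alone of 4.48 in H3K4me3 and 0.700 in H3K4me1. For the other 7 lists the share of peaks went the same way in both marks and the density did not. The ratio of midpoints per Mb, shared to alone, was 0.766 in H3K4me3 and 6.48 in H3K4me1 for total Pol II, 0.636 and 11.4 for Ser5P, and 0.802 and 5.53 for TBP. It was 0.703 and 2.43 for Taf1, 0.729 and 2.69 for TFIIA, 0.824 and 3.49 for TFIIF, and 0.959 and 1.82 for FAIRE. TFIIB, TFIIE, TFIIH, CBP, ETS1 and Ser2P had ratios above 1 in both marks.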

How the results depend on the processing

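No paired analysis was possible because each target had 1 list. The planned changes of overlap rule were not run for flanks, whose share does not depend on that rule. The shares of H3K4me3 and H3K4me1 peaks that were shared were 82.99% and 32.7% with overlap of at least 50% of the shorter peak, 93.6% and 41.5% with peaks within 500 bp counted, 54.7% and 54.2% with the H3K4me1 list reduced to the number of H3K4me3 peaks, and 93.6% and 42.3% for domains joined over 1 kb or less. The H3K4me3 share was 84.3% in the upper 50% of both lists by area and 86.1% on autosomes. In the order of these settings, the width ratio of H3K4me3 was 2.12, 2, 1.93, 3.34 and, in the upper 50%, 1.49. That of H3K4me1 was 1.46 within 500 bp, 2.57 for domains, 1 in the upper 50% and 0.934, below 1, with the reduced list. H3K4me1 on both sides was found at 49.1% in the upper 50%, 33.0% with the reduced list, 69.1% of domains, 71.1% on autosomes, and 50.2% and 77.7% with flanks of 500 bp and 2 kb.

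The number of lists more frequent in H3K4me3 alone than in H3K4me1 alone was 4 for domains. There Taf1 (-0.233 points), TFIIA (-0.363), TFIIE (-0.291), TFIIF (-0.209), TFIIH (-1.02) and FAIRE (-0.389) turned, and so did CBP (-1.92), whose interval held 0 in the deposited peaks. The number more frequent in shared than in alone H3K4me3 peaks was 6 per Mb. There total Pol II (-148 midpoints per Mb), Ser5P (-189), TBP (-100.4), Taf1 (-20.3), TFIIA (-17.5), TFIIF (-3.86) and FAIRE (-8.02) turned. Ser5P turned to -0.796 points with overlap of 50% of the shorter peak. Of 312 differences of single lists over the settings, 14 turned besides CBP, whose lone-peak difference was also negative within 500 bp (-0.517), in the upper 50% (-0.959) and with the reduced list (-2.68). A further 171, CBP among them, moved outside the interval found in the deposited peaks, and 127 counted as unchanged. Those that moved were 35 of 39 with the reduced list and 33 of 39 within 500 bp. On autosomes all 39 were unchanged. The cause of these changes was not tested. Without the lists of 1 replicate, a setting added after seeing the data, 8 of 10 lists were higher in H3K4me3 alone than in H3K4me1 alone, and 10 of 10 in shared than in alone peaks of either mark.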

Other observations

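Chromosome X stood apart from the other chromosomes in the pairing of the marks. Of its 763 H3K4me3 peaks, 62.4% were shared with H3K4me1, against a median of 85.9% and a highest value of 88.3%, on chromosome 16, over the 20 chromosomes. H3K4me1 lay on both sides of 35.9% of X H3K4me3 peaks, against a median of 70.9%. There were 1.73 H3K4me1 peaks for each H3K4me3 peak on X, the lowest of the 20 chromosomes, where the median was 2.69. The share of H3K4me1 peaks with H3K4me3 was in turn highest on X, at 43.8%, against a median of 34.8%. Lone H3K4me3 peaks on X had a median width of 440 bp, against 310 bp on autosomes, and 28.2% of the 287 on X lay 20 kb or more from H3K4me1, against 12.7% of the 3792 on autosomes. None of the 13 factor and FAIRE lists overlapped 70.7% of them on X and 64.1% on autosomes. Chromosome Y held 6 H3K4me3 and 9 H3K4me1 peaks and was not described.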
